A study of Mus musculus with 6 samples.

Results

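The TRIM ubiquitin ligases are the genes described here, in mouse small-intestinal stem cells with and without contact with interferon gamma (IFNg). Members were all genes with a symbol of the form Trim, a number and at most 1 further letter, and a mean of at least 10 scaled counts over the 6 libraries. Of 23127 genes in the table, 60 had such a symbol and 48 reached that mean. A scaled count is a gene's read count divided by its library's size factor, so that 1 read was worth 0.853 to 1.05 scaled counts. Just inside the minimum were Trim66 with a mean of 10.2 and Trim29 with 12.9, and just outside were Trim80 with 8.07 and Trim71 with 7.13. The rule used the mean over both groups, and not the difference between them. Of the 48 members, only Trim62 had an untreated mean below 10, and only Trim66 an IFNg mean below 10.

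Both groups were cells with high green fluorescent protein, sorted out of small intestine from Lgr5-GFP reporter mice on the C57BL/6 strain. Lgr5 is a receptor for R-spondins and a marker of the stem cells at the crypt base. The cells of the 3 IFNg libraries were kept for 1.5 h in medium holding EGF, Noggin and R-spondin1 with IFNg at 1 ng/ml. The untreated group, 3 libraries, is labelled as having no treatment and carries the same 1.5 h in its titles, and whether these cells stood in the same medium is not stated elsewhere. The labels give neither the mice's ages nor whether libraries came from separate animals. The p-values thus rest on the spread among these libraries, part or all of which may be technical. Libraries are named by the end numbers of their titles: untreated 5, 1 and 9, and IFNg 6, 2 and 10. Libraries 5 and 6 carry the title tag GFP1 and the other 4 GFP3, and the labels do not explain the tag. This was bulk RNA, in which fewer cells of a type and less RNA per cell cannot be told apart.

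TRIM proteins carry a RING finger, B-boxes and a coiled coil. The RING finger passes ubiquitin from a partner enzyme to a target, and the carboxy-terminal domain, most often a PRY-SPRY domain, chooses the target. Many of them act in innate immunity: they bind incoming viruses or add ubiquitin chains to the sensors and adaptors of viral nucleic acid. Several are known as interferon-stimulated genes. Others hold chromatin silent, bind microtubules or act in the turnover of cell organelles.

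Reads in genes numbered 28508762 to 40224497 per library. Libraries tagged GFP1 stood apart: over the tested genes, untreated 5 correlated at 0.930 and 0.933 with untreated 1 and 9, which correlated at 0.968 with each other. Likewise, IFNg 6 correlated at 0.939 and 0.925 with IFNg 2 and 10, which correlated at 0.971. The sorted cells carried the markers of crypt stem cells and epithelium (Lgr5, Olfm4, Epcam and 6 others), whose summed level was 339864 to 509728 scaled counts in untreated and 344012 to 481771 in IFNg libraries. Single markers went different ways, with 0 past the test and a median log2 change of -0.09. The untreated and IFNg means were 12257 and 45142 for Epcam and 9741 and 21417 for Smoc2, but 5555 and 4167 for Lgr5 and 122833 and 96544 for Cdh1. Of 16 leukocyte markers, 13 had a row, none was at 0 in all libraries and none passed the test. Their sum was 3697 to 5268 in untreated and 3726 to 4636 in IFNg libraries, most of it Lcp1. Summed levels of 6 Paneth cell markers were 100872 to 353962 in untreated and 23277 to 198547 in IFNg libraries, with a median log2 change of -1.10 and none past the test. For 5 goblet cell markers they were 65242 to 226577 and 75590.5 to 147212, with a median of -0.25. For 4 enteroendocrine markers they were 5521 to 18198.5 and 4789 to 15088, with a median of -0.29. Of these too, none passed. The part of these other cells in the TRIM values was not tested.

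Trim21 was the only TRIM member past the main test, 4.90-fold higher with IFNg, and lost that call when any of 4 libraries was left out. Another 12 members were higher in all 3 IFNg libraries than in any untreated library without passing the test, among them Trim25, Trim15, Trim10, Trim40, Trim12a and Trim34a, at 2.28 to 4.10 times the untreated mean. Whether Trim21 differed from these 12 was not tested. The test was limma on log2(scaled count + 1) over the 16095 genes with a mean of at least 10, two-sided, with Benjamini-Hochberg adjustment and a threshold of 0.05. A log2 change is on that scale, IFNg minus untreated, with its standard error (SE), and a fold is a ratio of mean scaled counts. By this test 1 of 48 members passed as higher, or 2.08%, against 0.416% of all tested genes, and 0 as lower, against 0.0124%. At an unadjusted p under 0.05, 11 members were higher, against 8.46% of tested genes, and 0 were lower, against 0.758%. EdgeR on the recovered reads passed 1 member as higher, against 0.373% of genes, and 0 as lower. DESeq2 passed 7 as higher, or 14.6%, against 2.84% of genes, and 0 as lower, against 0.0497%. With the library pairs as a block 2 members passed as higher, against 0.46% of genes, and 0 as lower, against 0.00621%. With the title tag as a term 4 passed as higher, against 0.671%, and 0 as lower, against 0.0186%.

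Without regard to the test, 34 of 48 members had a log2 change above 0, or 70.8%, against 42.9% of tested genes. The median log2 change was 0.42 over the members and -0.08 over all tested genes, and the members ran from -1.20 (Trim67) to 2.33 (Trim21). In 13 members, or 27.1%, every IFNg library lay above every untreated library, against 8.13% of tested genes. In 1 member, Trim46, every IFNg library lay below, against 5.06% of tested genes. These 13 members were Trim21, Trim25, Trim10, Trim15, Trim40, Trim12a, Trim34a, Trim12c, Trim30d, Trim69, Trim62, Trim59 and Trim56. The first 7 of these are also the 7 that DESeq2 passed. The count of members with a log2 change of at least 1 was 13 as well, against 10.4% of tested genes, and 10 met both conditions, against 5.49%. In 0 members were all IFNg libraries below with a change of -1 or less, against 0.764% of tested genes.

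**Figure D1:**
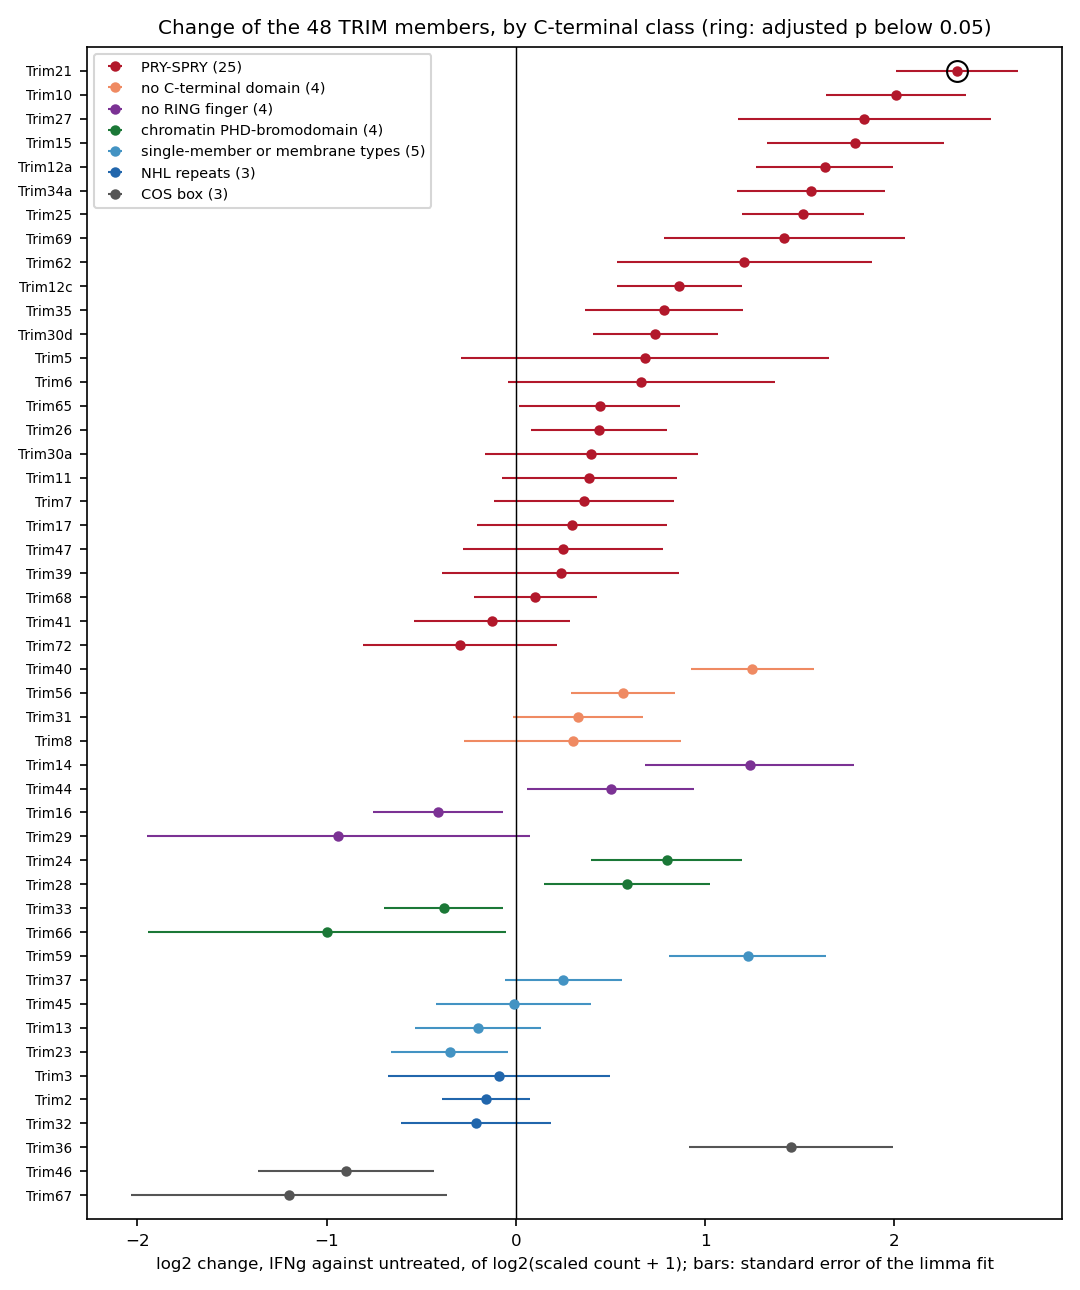
Log2 change, IFNg minus untreated, of each of the 48 TRIM members with its SE, on a horizontal log2 scale. Members are grouped and coloured by the domain at the carboxy-terminal end, with those lacking a RING finger as a class of their own. A ring marks an adjusted p below 0.05, which Trim21 alone carries, and most points of the PRY-SPRY class lie right of 0, while the NHL class lies left of it.

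Members were classed by the domain at the carboxy-terminal end, but those lacking a RING finger formed their own class, whatever that domain. The PRY-SPRY class so defined held 25 members. Of these, 23 had a log2 change above 0, against 42.9% of tested genes, and 10 had groups apart with IFNg higher, against 8.13%. The log2 changes of this class ran from -0.29 to 2.33 with a median of 0.68. The 4 members with no domain after the coiled coil (Trim8, Trim31, Trim40 and Trim56) all had changes above 0, from 0.30 to 1.25 with a median of 0.45. Of the 3 members with NHL repeats (Trim2, Trim3 and Trim32), 0 were above 0 and the range was -0.21 to -0.09. The 4 chromatin members with a PHD finger and bromodomain had a median of 0.10, from -0.998 in Trim66 to 0.80 in Trim24. The 4 without a RING finger, from -0.94 to 1.24, had a median of 0.05. The 5 of single-member or membrane types, from -0.35 to 1.23, had a median of -0.01. The 3 with a microtubule-binding COS box had a median of -0.90, with Trim36 at 1.45 and the other 2 below 0. The difference between classes was not tested.

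Several of these genes carry the letters of interferon response motifs at their starts. They are shown here because the members of the chromosome 7 cluster described below, except Trim6, share them. The letters searched, on both strands, were those of the interferon-stimulated response element, TTTC followed after any 2 bases by TTTC (GAAA, any 2 bases and GAAA on the other strand), and of the gamma-activated site, TTCNNNGAA. Promoters were taken from RefSeq on GRCm38.p6, and 37 of the 48 members had an entry, 51 entries in all. In the 250 bases before the start, 5 entries (9.80%) held the first letters, against 2.98% of 32851 promoters, and 5 entries (9.80%) the second, against 7.02%. Of the 10 members with groups apart, a log2 change of at least 1 and an entry, 1 held either letters there, namely Trim15. Over the whole 300-base entry, which runs 50 bases past the start and was looked at after the values were known, 10 entries (19.6%) held the first letters, against 3.44%, and 9.80% the second, against 8.30%. The sites of Trim21, Trim12a and Trim34a came from this wider search alone. Its 10 entries with the first letters came from 9 genes. In both searches, most entries with these letters were of the chromosome 7 cluster, whose genes are related copies. The entries are thus not independent of one another. Each site is 30 bases on the gene's strand, with the matching letters in capitals.
Trim21: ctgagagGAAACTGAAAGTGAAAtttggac
Trim12a: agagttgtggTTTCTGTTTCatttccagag
Trim5: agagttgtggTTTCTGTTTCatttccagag
Trim12c: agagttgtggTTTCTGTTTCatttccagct
Trim34a: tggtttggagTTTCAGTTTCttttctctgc
Trim30a: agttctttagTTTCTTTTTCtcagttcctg
Trim30d: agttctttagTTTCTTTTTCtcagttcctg
Trim26: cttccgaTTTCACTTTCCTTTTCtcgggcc
Trim15: agccaagagaTTCCAGGAAaccccatttcc

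The Trim21 site, chr7:102565447-102565476 on the minus strand, holds 2 overlapping matches in the first bases of the transcript. The Trim12a site (chr7:104315466-104315495, minus) and the Trim34a site (chr7:104244457-104244486, plus) also lie just after the RefSeq start. GENCODE, used for the gene positions, starts Trim12a at 104315466, and by that start its match lies upstream. The matches of Trim5 (chr7:104288136-104288165, minus), Trim12c (chr7:104353359-104353388, minus), Trim30a (chr7:104465210-104465239, minus) and Trim30d (chr7:104507871-104507900, minus) begin 49, 29, 36 and 41 bases before the RefSeq start. Trim26 (chr17:36836979-36837008, plus) holds 2 overlapping matches from 160 bases before its start. The Trim15 site (chr17:36867417-36867446, minus) is of the gamma-activated kind, 226 bases before the start. The same letters begin 105 bases before the start of Trim31, 93 before that of Trim45 and 215 before a start of Trim46, whose log2 changes were 0.33, -0.01 and -0.90. The response element's letters also begin 29 bases after a start of Trim2, whose log2 change was -0.16. Sites of Trim12a and Trim5 share all 30 bases and so do those of Trim30a and Trim30d, while Trim12a and Trim12c share 28. Trim34a shares 18 with Trim12a. Neither motif's letters were in the 300 bases of Trim6, Trim10, Trim25 or Trim40.

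Trim21 is the cytosolic receptor for the constant part of antibodies, and sends antibody-coated virus to the proteasome. It stands at chr7:102557921-102565486 on the minus strand (mm10). Its scaled counts were 281, 416 and 215 in untreated 5, 1 and 9, and 1477, 1743 and 1252 in IFNg 6, 2 and 10. The lowest IFNg library thus stood above the highest untreated one, with no overlap. The means were 304 ± 102 and 1491 ± 246 (SD, n = 3 each), a log2 change of 2.33 with SE 0.322 (adjusted p = 0.0168 by limma). Within the pairs of neighbouring numbers the log2 change was 2.39 for 5 and 6, 2.07 for 1 and 2, and 2.53 for 9 and 10. The call was lost when any of 4 libraries was left out: leaving out untreated 9 gave a limma adjusted p of 0.0867, leaving out IFNg 6 gave 0.0504, IFNg 2 gave 0.142 and IFNg 10 gave 0.0551. Trim21's neighbour on chromosome 7, Trim68, had 237 ± 42.1 and 257 ± 63.4 (SD, n = 3 each), with overlapping groups. Of the proteins that work with Trim21 on its targets, the unfoldase Vcp and the proteasome subunit Psmd4 had log2 changes of -0.25 and -0.29, neither past the test.

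Trim25 adds ubiquitin chains to the RNA sensor RIG-I, encoded by Ddx58, and also passes the ubiquitin-like protein ISG15 to targets. It lies at chr11:88999376-89020293 on the plus strand. It had 2008, 2968 and 3588 scaled counts in untreated 5, 1 and 9, and 6042, 10824 and 7706 in IFNg 6, 2 and 10. All IFNg libraries lay above all untreated ones, by 2.87-fold in the mean: 2855 ± 796 against 8191 ± 2428 (SD, n = 3 each). The log2 change was 1.52 with SE 0.322 (adjusted p = 0.152 by limma). With the library pairs as a block it passed (adjusted p = 0.0461 by limma), with the title tag as a term (0.0163 by limma) and in DESeq2 (0.00148) too. It did not pass in edgeR (adjusted p = 0.210) or with any library left out (0.0777 to 0.659 by limma). Ddx58 itself had 528 ± 80.5 scaled counts untreated and 705 ± 60.2 with IFNg, groups apart (log2 change 0.43, adjusted p = 0.798 by limma). Zc3hav1, the zinc-finger antiviral protein that works with Trim25 against viral RNA, had 1702 ± 392 and 3196 ± 247 (log2 change 0.93, adjusted p = 0.303 by limma and 0.0329 by DESeq2).

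**Figure D2:**
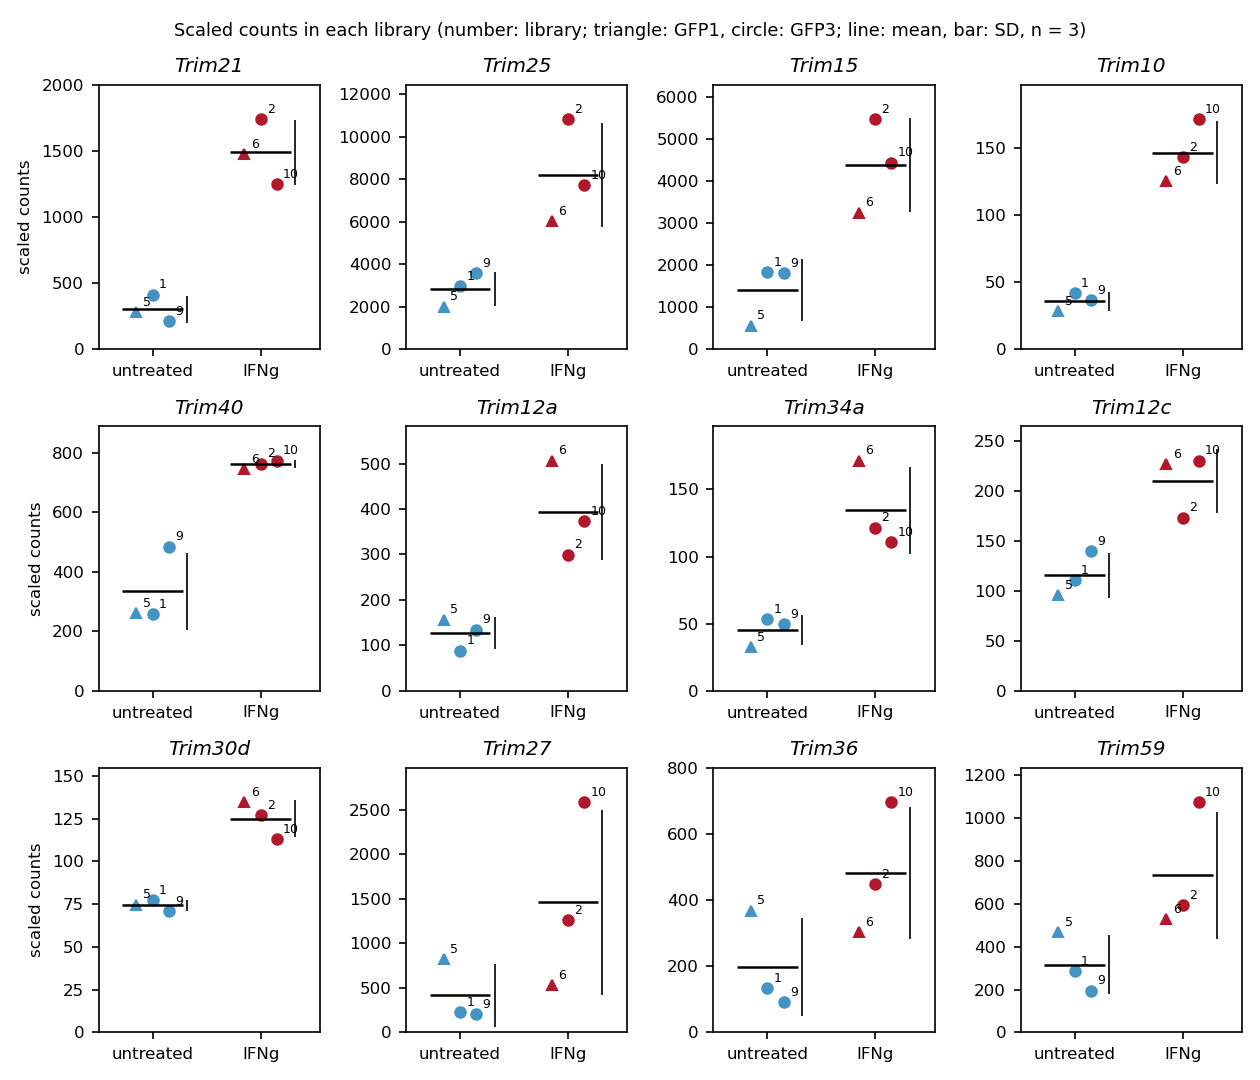
Scaled counts in each library for 12 TRIM genes, with a linear vertical axis from 0 in each panel; points are single libraries (triangles GFP1, circles GFP3, numbered by library), lines the group means and bars the SD (n = 3). In Trim21 the untreated libraries lie at 215 to 416 and the IFNg libraries at 1252 to 1743; in Trim27 and Trim36 the groups overlap, because untreated 5 stands above the other untreated libraries and IFNg 6 lies below it.

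On chromosome 7 stands a cluster of 7 members, Trim6, Trim34a, Trim5, Trim12a, Trim12c, Trim30a and Trim30d. Mouse Trim5, Trim12a and Trim12c are relatives of the primate restriction factor TRIM5alpha, which binds the capsids of retroviruses. All 7 had log2 changes above 0, from 0.40 to 1.63 with a median of 0.74, and 4 had groups apart with IFNg higher, where 42.9% of tested genes were above 0 and 8.13% apart in that direction. Of the 7, 0 passed the test. Trim30b and Trim34b of the same cluster fell below the minimum mean and were not tested. Their untreated means were 8.43 and 2.70 scaled counts, and their IFNg means were lower, at 1.75 and 0.585. Reads that align in more than 1 place were kept out of genes in the table, and these copies are alike. In Trim34a 59.7% of 50-base windows of the exons recur in another gene, mostly Trim34b, in Trim5 36.6%, in Trim12c 33.7%, in Trim12a 10.5% and in Trim30d 7.49%. Their values are therefore uncertain.

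Trim12a (chr7:104299894-104315466, minus) had 157, 88.6 and 135 scaled counts in untreated 5, 1 and 9, and 507, 300 and 374 in IFNg 6, 2 and 10. Groups were apart, 127 ± 34.9 against 393 ± 105 (SD, n = 3 each), 3.10-fold, with a log2 change of 1.63 and SE 0.361 (adjusted p = 0.180 by limma and 0.00112 by DESeq2). Trim34a (chr7:104244457-104262234, plus) had 32.7, 53.3 and 49.4, and then 171, 121 and 111. It too was apart, 2.98-fold, with the highest value in IFNg 6 (log2 change 1.56, SE 0.391, adjusted p = 0.280 by limma and 0.00623 by DESeq2). An antisense gene, Gm47248, covers 609 bases or 23.5% of its exons, and without strand their reads cannot be told apart. Trim12c (chr7:104338754-104353362, minus) had 95.9, 111 and 140, and then 227, 174 and 231, 1.82-fold. Trim30d (chr7:104470014-104507849, minus) had 74.8, 77.4 and 71.1, and then 135, 127 and 113, 1.68-fold. Both were apart with a small spread in the untreated group, and neither passed (limma adjusted p = 0.430 and 0.551).

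The other 3 genes of the cluster had overlapping groups at low levels. Trim30a, known to bring down the kinase adaptors Tab2 and Tab3 in NF-kappaB signalling, had 46.4, 13.8 and 20.6 scaled counts in untreated 5, 1 and 9, and 29.8, 28 and 37.7 in IFNg 6, 2 and 10. Trim5 had 33.7, 33.6 and 2.06, and then 39.2, 15.4 and 21.9. Its log2 change of 0.68 turned to -0.48 without untreated 9, where it had 2.06. Trim6 had 12.6, 69.7 and 56.6, and then 29.8, 78.1 and 89.5. Its log2 change of 0.66 turned to -0.08 without untreated 5. Trim5 carries the same 30 bases near its start as Trim12a, and Trim30a the same as Trim30d. The match begins 49 bases before the RefSeq start in Trim5 and at base 11 after the RefSeq start in Trim12a. By the GENCODE position given above, the Trim12a match lies before the start as well. The part of these letters in the values was not tested.

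A second run of members stands on chromosome 17, in the major histocompatibility region: Trim26, Trim15, Trim10, Trim40 and Trim31. These 5 had log2 changes from 0.33 to 2.01, median 1.25, and 3 of them, next to one another, had groups apart with IFNg higher, against 8.13% of tested genes. Trim10, known for its part in red cell maturation, lies at chr17:36869574-36877833 (plus). It had 28.4, 42.2 and 37.1 scaled counts in untreated 5, 1 and 9, and 125, 144 and 172 in IFNg 6, 2 and 10. The groups were far apart, 35.9 ± 6.93 against 147 ± 23.5 (SD, n = 3 each), 4.10-fold. The log2 change was 2.01 with SE 0.371 (adjusted p = 0.0794 by limma, 0.0370 with the tag as a term and 1.24e-05 by DESeq2).

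Trim15, found at focal adhesions, lies at chr17:36860691-36867210 (minus). It had 563, 1842 and 1822 in untreated 5, 1 and 9, and 3250, 5475 and 4441 in IFNg 6, 2 and 10. Untreated 5 was low and all IFNg libraries were above all untreated ones, 3.12-fold: 1409 ± 733 against 4389 ± 1114 (SD, n = 3 each). Its log2 change was 1.79 with SE 0.466 (adjusted p = 0.291 by limma, 0.0237 with the tag as a term and 0.0239 by DESeq2). Trim40, known in the gut as a brake on NF-kappaB, lies at chr17:36881598-36890123 (minus). It had 260, 258 and 484, and then 745, 763 and 773. The IFNg libraries were close together and above the untreated ones, 2.28-fold (log2 change 1.25, SE 0.326, adjusted p = 0.292 by limma and 0.0264 by DESeq2).

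At both ends of this run the groups overlapped. Trim26, which acts on the interferon factor IRF3, had 1467, 3491 and 2432 in untreated 5, 1 and 9, and 2431, 4027 and 3169 in IFNg 6, 2 and 10. Trim31, an intestinal member that acts on the adaptor Mavs, had 557, 1054 and 907, and then 789, 1388 and 965. Each was lowest in the GFP1 library of its group. Their log2 changes were 0.44 and 0.33 (limma adjusted p = 0.876 and 0.893).

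**Figure D3:**
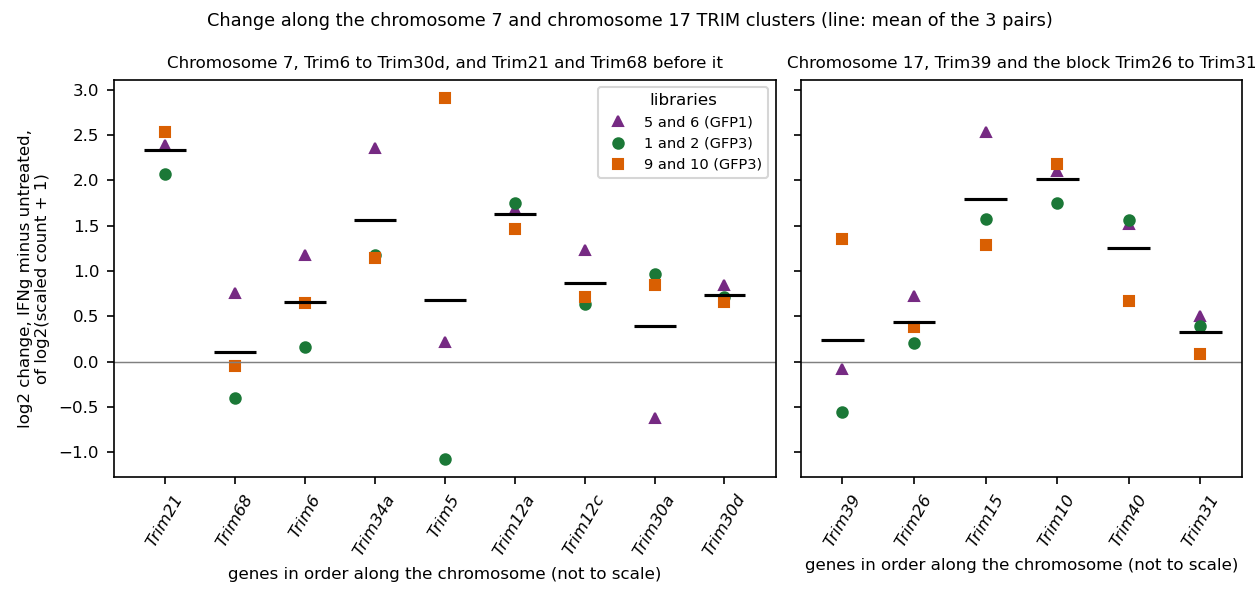
Log2 change within each pair of neighbouring library numbers for the TRIM genes of chromosome 7 and of chromosome 17, in their order along the chromosome and not to genomic scale; points are the 3 pairs and lines their means. On chromosome 7 the pairs of Trim21 lie together at 2.07 to 2.53, and on chromosome 17 those of Trim10 at 1.75 to 2.18, above Trim26 and Trim31 at the ends of that run.

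Trim27, Trim36 and Trim14 passed over the 4 GFP3 libraries, while over all 6 their groups overlapped and their GFP1 pair was not higher. Trim27, a nuclear and cytosolic ligase of NF-kappaB and innate signalling, had 819, 225 and 202 scaled counts in untreated 5, 1 and 9, and 530, 1258 and 2584 in IFNg 6, 2 and 10. Untreated 5 stood above IFNg 6, so the groups overlapped, and the log2 changes within pairs were -0.63, 2.48 and 3.67. Over all libraries the log2 change was 1.84 with SE 0.668 (adjusted p = 0.395 by limma), and over the 4 GFP3 libraries 3.08 (adjusted p = 0.00299 by limma). Trim36, a microtubule-binding member with a COS box, had 368, 134 and 91.7, and then 303, 447 and 696, with pair changes of -0.28, 1.73 and 2.91. Trim14, an adaptor of Mavs signalling without a RING finger, had 223, 51.6 and 57.7, and then 220, 174 and 233, with pair changes of -0.02, 1.73 and 2.00. Exons of Nans on the opposite strand cover 31.3% of Trim14's, so these reads cannot be told apart.

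Trim59, a membrane-anchored member, had 468, 286 and 195 in untreated 5, 1 and 9, and 529, 592 and 1074 in IFNg 6, 2 and 10. Its groups were apart, but the pair changes ran from 0.18 through 1.04 to 2.46. Over the 4 GFP3 libraries, 9 of 48 members passed as higher, or 18.8%, against 8.27% of tested genes: Trim21, Trim10, Trim25, Trim12a, Trim15, Trim59, Trim27, Trim36 and Trim14. That comparison has 2 libraries in each group, and 0 members passed as lower, against 0.0746%. Without untreated 5 alone, 2 members passed as higher, Trim21 and Trim14, against 2.27% of tested genes, and 0 as lower, against 0.0186%. Of those 9, 5 are also among the 7 that DESeq2 passed over all libraries. Across all 48 members, the median log2 change within the pair was 0.03 for 5 and 6, 0.41 for 1 and 2, and 0.84 for 9 and 10, against 0.01, -0.08 and -0.18 over all tested genes. In the same order of pairs, 52.1%, 68.8% and 70.8% of members were higher with IFNg, against 51.5%, 45.0% and 39.8% of tested genes. In 17 members all 3 pairs were higher and in 5 none was, counts for which no share over all genes was taken. The difference between the tags was not tested for these members.

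The low members with groups apart were Trim69 and Trim62. Trim69 had 12.6, 10.3 and 7.21 scaled counts in untreated 5, 1 and 9, and 52.9, 22.2 and 18.4 in IFNg 6, 2 and 10. Trim62 had 6.32, 11.2 and 10.3, and then 16.2, 15.4 and 43.0. In each a single IFNg library was far above the other 2, and their log2 changes were 1.42 and 1.21 (limma adjusted p = 0.551 and 0.717). Trim56, known to act with the sensors of cytosolic DNA and double-stranded RNA, had 466, 369 and 368, and then 554, 669 and 556. Its groups were apart, and it did not pass (log2 change 0.57, adjusted p = 0.615 by limma).

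Levels between genes were compared per kilobase of exons. The length was that of all annotated exons of a gene together: 19751 bases in Trim2, 1961 in Trim15 and 5754 in Trim25. Exons that these cells do not use would lower a gene's value, so the ranks depend on the annotation. Which exons were used was not tested. Trim16, which acts in the answer to oxidative and lysosomal damage and lacks a RING finger, was highest, at 3354 ± 1201 scaled counts per kilobase untreated and 2460 ± 648 with IFNg (SD, n = 3 each). Trim15 followed at 718 ± 374 untreated and 2238 ± 568 with IFNg, and Trim25 at 496 ± 138 and 1423 ± 422. With IFNg, Trim16 and Trim15 differed by less than 1 SD, and in untreated cells Trim2 (503 ± 67.2) and Trim25 lay within the SD of Trim15. Trim2, Trim28, Trim31 and Trim26 made up the next ranks with 449 ± 16.8, 493 ± 122, 464 ± 137 and 467 ± 116 per kilobase with IFNg, differing by less than the larger SD among them. Trim21 moved from 81.9 ± 27.5 to 401 ± 66.2 per kilobase, below these in both groups.

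**Figure D4:**
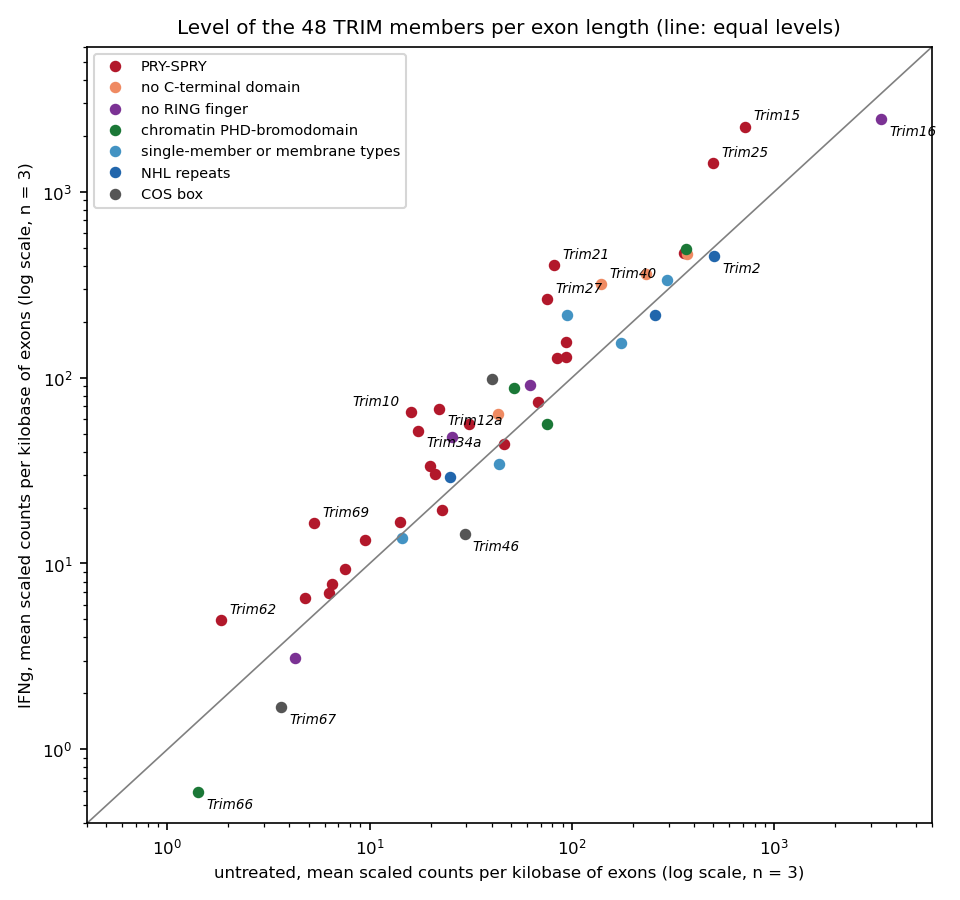
Mean scaled counts per kilobase of exons of the 48 TRIM members, untreated on the horizontal and IFNg on the vertical axis (n = 3 each). Both axes are log scales, points are coloured by domain class, and the line marks equal levels. Trim16 is highest in both groups, and Trim21, Trim10, Trim15 and Trim25 lie above the line while Trim46 and Trim67 lie below it.

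Of the 5 highest members per kilobase, Trim15 and Trim25 had groups apart, as given above, and Trim16, Trim2 and Trim28 did not separate. Trim16 had 9508, 20408 and 16048 scaled counts in untreated 5, 1 and 9, and 8521, 14393 and 10792 in IFNg 6, 2 and 10, lowest in the GFP1 library of each group (log2 change -0.41, adjusted p = 0.877 by limma). Trim2, which marks neurofilament light chain in neurons, had 9182, 11457 and 9137, and then 9218, 8801 and 8564 (log2 change -0.16, adjusted p = 0.921 by limma). Both had overlapping groups. Trim28, the corepressor that KRAB zinc-finger proteins bring to transposons, had 2703, 950 and 920, and then 2145, 1500 and 2500. Its IFNg mean was 1.34 times the untreated mean, and 2.19 times without untreated 5, the highest library of all. With any other library left out the ratio was 1.12 to 1.52. Trim28 passed in none of these (limma adjusted p of 0.129 or more).

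Its chromatin relatives had overlapping groups as well. Trim24, a nuclear receptor cofactor, had 658, 347 and 310 in untreated 5, 1 and 9, and 775, 478 and 1006 in IFNg 6, 2 and 10. Trim33, which binds Smad proteins, had 985, 678 and 538, and then 644, 546 and 462, with a log2 change of -0.38 (adjusted p = 0.876 by limma). Trim46, a microtubule protein of the axon's start, was the only member with all IFNg libraries below all untreated ones: 185, 77.4 and 72.1, and then 68.2, 52.1 and 43.9. Its log2 change was -0.90 (adjusted p = 0.661 by limma), and untreated 5 alone was far above the rest. Exons of Krtcap2 on the opposite strand cover 239 bases of it, whose reads cannot be told apart. The low members Trim67 and Trim66 had overlapping groups at 3.41 to 48.4 and 2.56 to 22.1 scaled counts.

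Beyond those 48, the other genes of the pathway were taken from lists of TRIM proteins under other symbols, ubiquitin and ISG15 enzymes, partners in RNA and DNA sensing, partners of Pml and Trim28, and the disposal partners of Trim21 given above. Of 47 listed, 42 were tested, and 0 passed in limma or edgeR in either direction. At an unadjusted p under 0.05, 8 were higher, against 8.46% of tested genes, and 0 lower, against 0.758%. DESeq2 passed 5 as higher, against 2.84%, and 0 as lower, against 0.0497%. In 12 of 42 (28.6%) all IFNg libraries lay above all untreated ones, against 8.13% of tested genes, and in 1, the adaptor Mavs, below, against 5.06%. The median log2 change was 0.03, against -0.08 over all tested genes. The 14 sensing partners held 8 of these 12.

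The 5 that DESeq2 passed were 4 sensing partners and 1 enzyme. Tab3, an adaptor of the kinase Tak1, had 575, 855 and 492 scaled counts in untreated 5, 1 and 9, and 1393, 1736 and 2481 in IFNg 6, 2 and 10 (log2 change 1.54, adjusted p = 0.156 by limma and 0.00141 by DESeq2). Mb21d1, the DNA sensor cGAS, had 123, 99.8 and 23.7, and then 298, 407 and 214 (log2 change 2.14, adjusted p = 0.296 by limma and 0.0370 by DESeq2). Groups were apart in both. Its adaptor STING, encoded by Tmem173, had 584 ± 161 and 1448 ± 603 (SD, n = 3 each; log2 change 1.27, adjusted p = 0.296 by limma and 0.0282 by DESeq2). Zc3hav1 is given above. Ube2l6, the enzyme that carries ISG15, had 400, 345 and 330, and then 939, 921 and 668 (2.35-fold, adjusted p = 0.206 by limma and 0.000471 by DESeq2). Its groups were apart as well. Mavs had 875 ± 78.9 and 648 ± 147 (SD, n = 3 each; log2 change -0.46, adjusted p = 0.792 by limma).

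Pml, the TRIM protein that builds nuclear bodies, had 639, 1728 and 1219 scaled counts in untreated 5, 1 and 9, and 1597, 3174 and 1929 in IFNg 6, 2 and 10. The groups overlapped although each pair was higher with IFNg (log2 change 0.95, adjusted p = 0.532 by limma). Its partner Daxx had 1595 ± 398 and 3128 ± 784 (SD, n = 3 each), with groups apart (log2 change 0.97, adjusted p = 0.324 by limma). The microtubule-binding relatives Mid1 and Mid2 had log2 changes of 0.32 and -0.17.

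The remaining members, not named above with their values, were Trim3, Trim7, Trim8, Trim11, Trim13, Trim17, Trim23, Trim29, Trim32, Trim35, Trim37, Trim39, Trim41, Trim44, Trim45, Trim47, Trim65 and Trim72. In all of these the groups overlapped and none passed the test. Their log2 changes ran from -0.94 (Trim29) to 0.78 (Trim35), and the limma adjusted p from 0.686 to 0.997. Among those with a wide spread in the IFNg group, Trim8 had 416, 1071 and 2531 in IFNg 6, 2 and 10 and Trim39 had 328, 483 and 1953. In both, IFNg 10 was highest, as it was in 22 of the 48 members (45.8%), against 32.6% of tested genes. The 12 rows below the mean of 10 scaled counts were Trim9, Trim30b, Trim34b, Trim38, Trim54, Trim55, Trim58, Trim60, Trim63, Trim71, Trim75 and Trim80, among them the muscle ligases Trim54, Trim55 and Trim63.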

How the data were processed

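The deposited table holds 1 signal per gene and library, read counts that the authors divided by a DESeq size factor, as the file's name says. The submitters' processing notes name, without roles, the build mm10 and the tools STAR 2.5.0a, cutadapt 1.6, DESeq 1.22.1 and HTSeq 0.5.3. Neither annotation nor strand setting was given in the sources used here. Per the labels' protocols, 2 ng of RNA were amplified for 12 cycles with SMART-Seq v4 and 8 more with KAPA Hyper, which marks no strand and carries no molecular identifiers. Limits of counting therefore cover counting error only, and a count of 0 allows up to 3 reads, or 2.56 to 3.16 scaled counts.

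Of 138762 values, 100% were whole multiples of a library's step within 0.01 of a read, and those reads were used for edgeR 4.0.16 and DESeq2 1.42.0. Of each library's summed values, 18.5% to 25.0% were reads aligned more than once, 9.67% to 14.2% lay in no gene, 8.83% to 15.4% were unaligned and 0.948% to 1.20% were ambiguous. These 4 rows stayed out of library sizes and tests. Chi-square per degree of freedom between libraries was 62.7 to 505, so none was taken as a copy of another.

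The main test was limma 3.58.1 in R 4.3.3, with a trended, robust prior, a pseudocount of 1 and genes with a mean of at least 10. Alternatives were a pair block, a tag term, the GFP3 libraries, TMM scaling, pseudocounts of 0.5 and 10, a minimum of 50 or none, and each library left out. Deviations from group means correlated at 0.302 (5 and 6), 0.404 (1 and 2) and 0.252 (9 and 10), and below 0 otherwise, which those 3 values help to fix. The pairing comes from these data, not from the labels.

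Members and lists were chosen with earlier results of these data known. Genes named with values were the members that passed, those whose groups were apart with the largest changes, the 5 highest per kilobase and the chromosome 7 cluster; Trim14, Trim24, Trim26, Trim27, Trim31, Trim33, Trim36, Trim46, Trim56, Trim66, Trim67, Trim68, Trim8 and Trim39 were added after their values were seen. Exon lengths and positions came from GENCODE M21 on GRCm38, which is mm10, and promoters from RefSeq.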

Additional observations from a re-analysis of the deposited data

How the results depend on the processing

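The number of TRIM members past the threshold as higher was 1 in the main test. It was 7 with DESeq2, 2 with the replicate block, 4 with the tag as a term and 9 over the GFP3 libraries only, and ran from 0 to 2 when a library was left out. The second member without untreated 5 was Trim14 (limma adjusted p = 0.0379). As lower, 0 members passed under any of these. Among the other 42 genes of the pathway, 0 passed in the main test. As higher, 5 passed with DESeq2, against 2.84% of tested genes, and 4 over the GFP3 libraries, against 8.27%. The block passed Trim25 beside Trim21 and changed no other call of a named member. Over the 18 members named by rule, 282 values under alternatives kept their direction except 2: the log2 change of Trim5 turned to -0.48 without untreated 9, the lowest of a leave-one-out range of -0.48 to 1.27, and that of Trim6 to -0.0787 without untreated 5, with a range of -0.0787 to 1.149. Of the rest, 261 kept their side of the threshold as well, 15 passed only under the alternative, and 4 no longer passed, all Trim21 with a library left out. The cause of these moves was not tested. Each group holds 3 libraries, 1 of them tagged GFP1, and the counts of the lowest members are near those of single reads.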
